A study of Mus musculus with 8 samples.

Results

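Cadherins and protocadherins are membrane proteins whose extracellular cadherin repeats bind calcium and hold neighbouring cells together. Classical cadherins link to the actin skeleton through catenins, while protocadherins have other cytoplasmic tails and take part in neuronal self-recognition and wiring. Celsr and Fat proteins are very large members that pass on cell polarity. In the brain the superfamily is known for sorting neurons, placing synapses and sealing blood vessels.

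The superfamily was taken as the protein-coding genes whose symbol opens with Cdh and a digit, with Pcdh, or with Celsr, together with Fat1, Fat3 and Fat4. These were 98 of the 55401 genes of the table. Of these, 41 lay outside the clustered protocadherin loci and 57 in them (14 Pcdha, 22 Pcdhb and 21 Pcdhg genes). The 41 comprised 5 type I and 13 type II classical cadherins, 5 other cadherins, 4 δ1, 5 δ2 and 3 other nonclustered protocadherins, 3 Celsr and 3 Fat genes.

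The study sequenced RNA that came down with an antibody from C57BL/6 mouse tissue labelled hippocampus (RNA immunoprecipitation, RIP). The 8 libraries were 3 CaMKIIβ RIP libraries, 3 IgG RIP libraries made with a control antibody, and 2 Input libraries without precipitation. CaMKIIβ is a subunit of a calcium-activated protein kinase of synapses. Age, sex and the number of animals are not given in the sources used here, so p-values measure the spread between these libraries, which may be technical.

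Libraries held 17273957 to 25299903 counts in CaMKIIβ RIP, 22061623 to 28138289 in IgG RIP, and 17776157 and 21359418 in Input. CaMKIIβ RIP replicate 2 stood apart, with counts for 19247 genes, against 24865 to 28458 genes in the other RIP libraries and 30899 and 31152 in Input. It had 8 of the 98 members at 0 counts, against 1 to 4 members in the other libraries. The tissue label went against its markers. Levels are given as counts per 1000000 of a library's TMM-scaled total (scaled CPM). The summed levels of 7 cerebellar granule cell markers were 2325 to 2671 in CaMKIIβ RIP, 2431 to 2518 in IgG RIP, and 2824 and 2861 in Input. The sums of 8 hippocampal and telencephalic markers were 173 to 198, 163 to 166, and 150 and 154 CPM in the same groups, with no marker of either list at a group mean of 0. The cells that carried a member's RNA are therefore not settled by the label. In such bulk samples fewer cells of a type and less RNA per cell cannot be told apart.

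The superfamily took 0.610%, 0.599% and 0.554% of all counts in CaMKIIβ RIP, 0.591%, 0.595% and 0.5998% in IgG RIP, and 0.408% and 0.389% in Input. Every RIP library of either antibody stood above both Input libraries. The exact two-sided permutation test gave p = 0.2 for each antibody against Input, which is the smallest p that 3 against 2 libraries allow. Fat1, a giant atypical cadherin of cell polarity and migration, alone made up 29.7% ± 1.71 of superfamily counts in CaMKIIβ RIP, 30.1% ± 0.576 in IgG RIP (SD, n = 3 each) and 18.5% ± 0.290 in Input (SD, n = 2). Without Fat1 the superfamily share averaged 0.413% in CaMKIIβ RIP, 0.416% in IgG RIP and 0.324% in Input, again with no overlap between either antibody and Input.

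Levels of different genes were set side by side as scaled CPM per kb of exon. In Input, Pcdh9, a δ1 protocadherin of neurons, was highest at 49.7 ± 2.12 CPM per kb. It was followed by Fat1 (42.2 ± 2.09), Celsr2 (25.6 ± 1.29), Pcdh1 (17.5 ± 0.116) and Cdh18 (15.8 ± 0.434; SD, n = 2 each). Each of these 5 stood further from the next than their SDs reached. Fat3 and Cdh8 in places 8 and 9, and Cdh8 and Cdh15 in places 9 and 10, did not. In both RIP groups Fat1 came first, with 115.7 ± 12.9 CPM per kb in CaMKIIβ RIP and 118.8 ± 4.64 in IgG RIP (SD, n = 3 each). Pcdh9 came in place 3, with 54.1 ± 5.22 and 58.4 ± 2.14 CPM per kb in the same groups. The lowest members were Cdh16, Cdh17 and Cdh26, genes known from epithelia, with at most 13 counts in any library. These 3 were not tested, which left 38 of the 41.

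**Figure D1:**
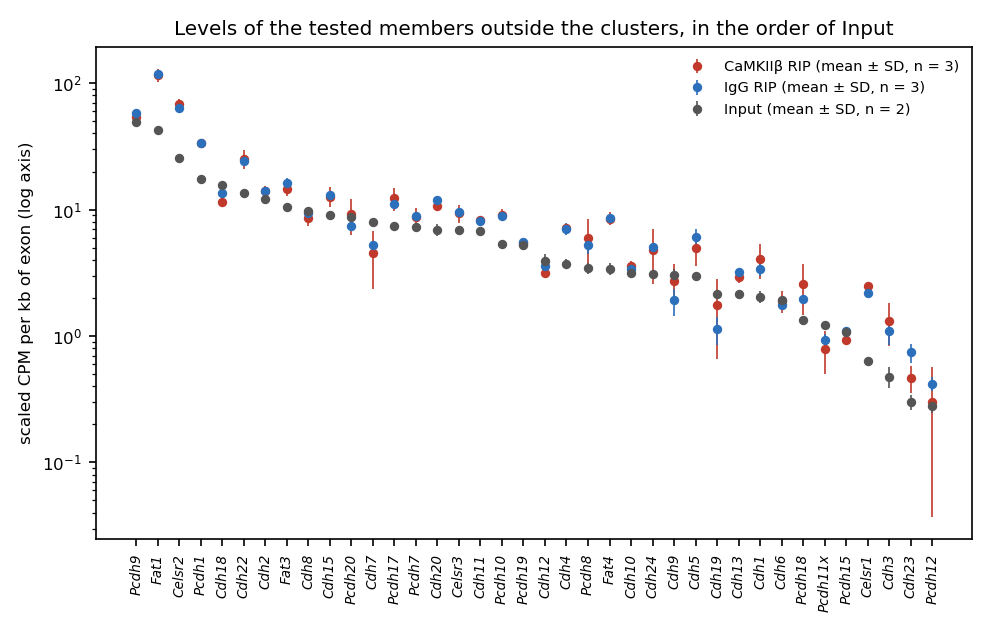
Mean scaled CPM per kb of exon (log axis) of the 38 tested members outside the clusters, in the order of their Input level, for CaMKIIβ RIP, IgG RIP and Input, with SD as bars. Fat1 and Celsr2 lie well above their Input level with both antibodies, while Pcdh9, first in Input, lies close to it.

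The comparison of CaMKIIβ RIP with Input asked which members were recovered with the CaMKIIβ antibody in a larger or smaller proportion than they had in unprecipitated RNA. Outside the clusters 8 of 38 members rose and 0 fell, in edgeR's quasi-likelihood test with Benjamini-Hochberg adjustment over all genes at 0.05. They were Celsr1, Celsr2, Fat1, Fat4, Pcdh1, Pcdh10, Cdh4 and Cdh22. Of all 22095 genes tested 5.06% were higher and 3.4% lower, while 7.63% of the protein-coding genes were higher and 4.59% lower. The members' median log2 fold change was 0.42, beside -0.12 for all genes and 0.01 for protein-coding genes. All libraries of CaMKIIβ RIP stood above both Inputs in 23 of the 38 members and below them in 5, where the shares of all genes were 20.6% and 26.5%.

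Celsr proteins are cadherins with a receptor-like membrane domain that work in planar cell polarity, axon guidance and the beating of ependymal cilia. Celsr1 had 28.9, 29.3 and 29.2 CPM in CaMKIIβ RIP, 23.5, 26.0 and 26.6 in IgG RIP, and 7.56 and 7.21 in Input. Celsr2 had 789, 859 and 713 CPM in CaMKIIβ RIP, 698, 715 and 803 in IgG RIP, and 306 and 285 in Input. Both were more than 2-fold higher in every RIP library than in either Input library, with the CaMKIIβ libraries of Celsr1 above all IgG libraries and those of Celsr2 among them. Celsr3 had 121, 127 and 91.9 CPM in CaMKIIβ RIP, 115, 112 and 119 in IgG RIP, and 85.4 and 80.95 in Input. The log2 fold changes of CaMKIIβ RIP over Input were 1.93 ± 0.20 for Celsr1, 1.37 ± 0.12 for Celsr2 and 0.40 ± 0.17 for Celsr3 (SE), and edgeR's adjusted p-values were 0.00527, 0.00399 and 0.210. Celsr3 was thus higher in all 3 libraries without passing the test. Celsr1 lies at chr15:85898929-86034203 on the minus strand and Celsr2 at chr3:108390851-108415552 on the minus strand (GRCm38.p6).

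Fat proteins carry the longest cadherin repeat arrays of the superfamily, and Fat4 is the receptor for Dchs1 in planar polarity and neuronal migration. Fat1 had 2030, 1771 and 1633 CPM in CaMKIIβ RIP, 1833, 1805 and 1942 in IgG RIP, and 684 and 638 in Input. Fat4 had 152, 159 and 126 CPM in CaMKIIβ RIP, 148, 142 and 150 in IgG RIP, and 62.9 and 53.9 in Input. In both genes the RIP groups overlapped each other and lay at least 2-fold over Input. Fat3, which shapes the dendrites of some retinal neurons, had 349, 276 and 310 CPM in CaMKIIβ RIP, 346, 382 and 317 in IgG RIP, and 227 and 221 in Input. The log2 fold changes of CaMKIIβ RIP over Input were 1.41 ± 0.12 for Fat1, 1.28 ± 0.16 for Fat4 and 0.43 ± 0.13 for Fat3, with edgeR's adjusted p of 0.00399, 0.00771 and 0.0819. Fat1 lies at chr8:44935447-45052257 and Fat4 at chr3:38886940-39011985, both on the plus strand, and 3.11% and 8.68% of their exon bases overlap genes on the other strand.

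Among the protocadherins outside the clusters, Pcdh1 had 304, 298 and 281 CPM in CaMKIIβ RIP, 291, 284 and 315 in IgG RIP, and 154 and 155 in Input. Pcdh10, a δ2 protocadherin that binds a regulator of actin and acts in the removal of synapses, had 135, 162 and 135 CPM in CaMKIIβ RIP, 138, 142 and 147 in IgG RIP, and 89.2 and 80.3 in Input. Both were separate from Input with either antibody. Their log2 fold changes of CaMKIIβ RIP over Input were 0.89 ± 0.11 and 0.72 ± 0.14, and edgeR's adjusted p was 0.00729 and 0.0249. Pcdh9 had 398, 328 and 375 CPM in CaMKIIβ RIP, 413, 385 and 391.5 in IgG RIP, and 347 and 327 in Input. Its CaMKIIβ libraries overlapped Input, at 0.08 ± 0.12 on the log2 scale (edgeR's adjusted p = 0.813). The other 3 δ1 members and 4 δ2 members that did not pass, Pcdh9 included, ranged from -0.67 to 0.90.

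Of the classical cadherins, Cdh4 (R-cadherin, of type I) and Cdh22 (of type II) rose. Cdh4 had 49.9, 54.4 and 51.8 CPM in CaMKIIβ RIP, 50.9, 46.0 and 56.5 in IgG RIP, and 28.6 and 25.5 in Input. Cdh22 had 89.7, 111 and 79.9 CPM in CaMKIIβ RIP, 87.3, 86.6 and 97.0 in IgG RIP, and 51.0 and 48.5 in Input. Every library with either antibody was above both Inputs, at a CaMKIIβ RIP over Input log2 fold change of 0.90 ± 0.16 for Cdh4 and 0.87 ± 0.17 for Cdh22 (edgeR's adjusted p = 0.0180 and 0.0276). Cdh2 (N-cadherin), the main classical cadherin of neural tissue, had 112, 103 and 125 CPM in CaMKIIβ RIP, 115, 110 and 111 in IgG RIP, and 93.0 and 101 in Input. It stood above Input in every library by a small margin, at 0.17 ± 0.13 (edgeR's adjusted p = 0.527). Type II members ranged from -0.87 to 0.87 around a median of -0.06, and type I members from 0.17 to 1.43 around 0.90.

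**Figure D2:**
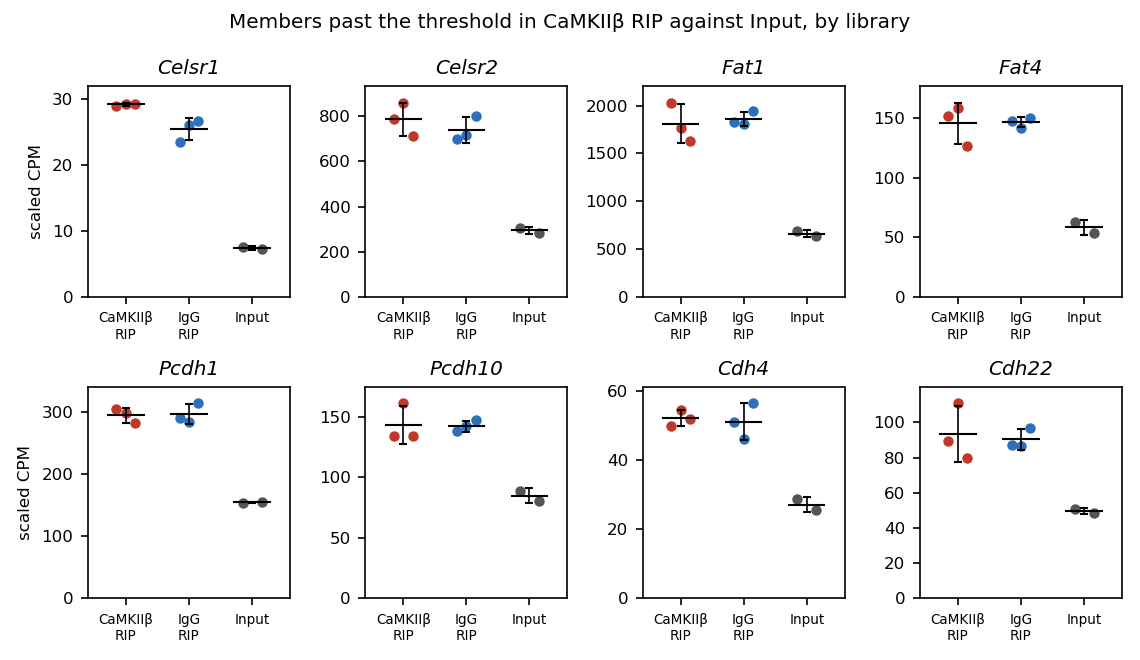
Scaled CPM of the 8 members past the threshold in CaMKIIβ RIP against Input, one point per library, with the mean as a line and SD as bars (n = 3, 3 and 2). In all 8 panels the points of both antibodies lie above those of Input, and the 2 antibodies lie at like levels, Celsr1 being the panel in which they do not overlap.

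The count of 8 depended on single libraries. Without CaMKIIβ RIP replicate 1 the fold changes of the 8 stayed close to those above. They were 1.97 for Celsr1, 1.40 for Celsr2, 1.35 for Fat1 and 1.27 for Fat4. Cdh4 stood at 0.96, Cdh22 at 0.92, Pcdh1 at 0.89 and Pcdh10 at 0.79. The count was 0 in that fit, and 0 of 21439 genes of any kind passed edgeR's adjusted threshold then, although 4607 had an unadjusted p under 0.05. Without CaMKIIβ RIP replicate 2 it was 14 with 1 member lower, and without either Input library it was 5. Of all genes 2471 of 21901 were higher and 1618 lower without CaMKIIβ RIP replicate 2, beside 1117 and 751 of 22095 in the main fit. With library size alone in place of TMM, 6 members were higher and 1 lower, beside 683 and 1361 of 22095 genes, and the median of all genes moved to -0.29. Pcdh10 and Cdh22 were the called members lost there, and Pcdh10 was also lost when a trend of the fold change on exon length was removed (0.45, edgeR's adjusted p = 0.09596).

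Promoter sequences are shown with their CpG content for 4 of the 8 genes that rose with the CaMKIIβ antibody. RefSeq windows on GRCm38.p6 reach from 250 bases before to 50 after a start, and 21 of the 41 members outside the clusters had a window whose start lay within 500 bases of their deposited 5′ end. Those windows held a median of 18 CpG (C followed by G, which reads the same on both strands) and 61.8% G and C, against 7 CpG and 52.7% over all 32851 windows. The 32851 windows were limited neither to protein-coding genes nor by their distance to a deposited 5′ end. Without the distance limit, 30 windows of 27 members outside the clusters had a median of 16 CpG and 60.5% G and C. The windows of Celsr2, Cdh22, Pcdh10 and Fat4 held 40, 38, 24 and 13 CpG. The 100 bases before the start are printed 5′ to 3′ on the gene's strand, with CpG in capitals. The first lies at chr3:108415580-108415679 (minus), the second at chr2:165234738-165234837 (minus), the third at chr3:45378298-45378397 (plus) and the fourth at chr3:38886840-38886939 (plus). The RefSeq start of Cdh22 lay 116 bases inside the deposited gene, so the bases printed for Cdh22 fall within that gene.
Celsr2: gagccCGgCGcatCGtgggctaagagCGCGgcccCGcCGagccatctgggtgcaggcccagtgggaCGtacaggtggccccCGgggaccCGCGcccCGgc
Cdh22: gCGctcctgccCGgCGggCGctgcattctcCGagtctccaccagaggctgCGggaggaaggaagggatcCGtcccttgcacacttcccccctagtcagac
Pcdh10: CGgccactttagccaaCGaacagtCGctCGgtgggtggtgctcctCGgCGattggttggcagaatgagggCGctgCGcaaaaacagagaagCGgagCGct
Fat4: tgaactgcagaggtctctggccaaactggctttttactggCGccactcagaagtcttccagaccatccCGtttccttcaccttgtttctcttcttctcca
The 100 bases of Celsr2, Pcdh10, Cdh22 and Fat4 held 12, 10, 7 and 2 CpG. A relation of CpG content to the fold changes was not tested.

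The comparison of IgG RIP with Input measured what the control antibody recovered, and it uses the same Input libraries as the comparison above. Outside the clusters 25 of 38 members rose and 4 fell, where 20.1% of 22342 genes were higher and 18.7% lower, while 28.7% of protein-coding genes were higher and 20.6% lower. The members' median log2 fold change was 0.57, beside -0.02 for all genes and 0.08 for protein-coding genes. All IgG libraries stood above Input in 26 members and below in 7, against 28.9% and 31.5% of all genes. All 3 Celsr, all 3 Fat and all 5 type I genes rose, although the type I gene Cdh2 turned to -0.00651 with library size alone. Of the protocadherins 4 of 5 δ2 and 3 of 4 δ1 genes rose, and with library size alone 3 and 1 did. With library size alone 20 members rose and 9 fell, beside 2714 of 22342 genes higher and 6345 lower, and the median of all genes moved to -0.25. In a fit of all 8 libraries 14 members rose and 0 fell, beside 2023 of 23108 genes higher and 1653 lower. Celsr3, Cdh3, Cdh2, Pcdh9 and Cdh9 no longer passed in that fit. Cdh2 (0.22 ± 0.07, edgeR's adjusted p = 0.0209) also lost its call without IgG RIP replicate 1 (0.0831) or Input replicate 1 (0.296), and Pcdh9 (0.24 ± 0.06, 0.00421) without Input replicate 2 (0.113). Fat1, Celsr1, Fat4, Celsr2 and Pcdh1 had IgG RIP over Input log2 fold changes of 1.504 ± 0.06, 1.79 ± 0.14, 1.34 ± 0.08, 1.34 ± 0.07 and 0.95 ± 0.07, with edgeR's adjusted p of at most 3.16e-08. Their changes with the CaMKIIβ antibody were 1.41, 1.93, 1.28, 1.37 and 0.89.

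Cdh23, a cadherin of the tip links of hair cells, had 10.01, 6.47 and 7.14 CPM in CaMKIIβ RIP, 11.7, 11.05 and 15.02 in IgG RIP, and 5.54 and 4.57 in Input. Its IgG RIP over Input log2 fold change was 1.33 ± 0.19 (edgeR's adjusted p = 3.03e-05). Cdh3 (P-cadherin) had 3.59, 7.87 and 5.97 CPM in CaMKIIβ RIP, 3.71, 4.80 and 5.97 in IgG RIP, and 2.37 and 1.80 in Input. Both genes are of low level, and both stood above Input in every RIP library. Cdh3 was higher by 1.23 ± 0.29 in IgG RIP (edgeR's adjusted p = 0.00276), and its 1.43 ± 0.51 in CaMKIIβ RIP did not pass (0.143). The IgG call ended without Input replicate 2 (1.04, edgeR's adjusted p = 0.0711). Cdh13 (T-cadherin), which is anchored by a lipid and lacks a cytoplasmic tail, had 36.8, 29.7 and 32.6 CPM in CaMKIIβ RIP, 35.3, 34.7 and 37.4 in IgG RIP, and 24.6 and 23.5 in Input. It rose by 0.58 ± 0.10 in IgG RIP (edgeR's adjusted p = 0.000206) and was 0.41 ± 0.18 higher in CaMKIIβ RIP (0.224).

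The type II cadherins included genes that rose and genes that fell. In IgG RIP 5 of 13 rose, 3 fell and 5 did not pass, beside 28.7% of protein-coding genes higher and 20.6% lower. With library size alone 4 rose and 7 fell, beside 2714 of 22342 genes higher and 6345 lower. The members that fell with TMM scaling, together with Pcdh11x, are named here because they were so few, after their values were seen. Cdh7 had 44.5, 24.1 and 68.0 CPM in CaMKIIβ RIP, 54.6, 54.0 and 48.6 in IgG RIP, and 82.3 and 78.4 in Input. Cdh9 had 6.46, 9.27 and 13.4 CPM in CaMKIIβ RIP, 6.47, 8.53 and 5.30 in IgG RIP, and 9.82 and 11.7 in Input. Cdh7 lay below Input in all 6 RIP libraries, and Cdh9 in all of them but CaMKIIβ RIP replicate 3. In IgG RIP the log2 fold changes were -0.60 ± 0.08 for Cdh7, -0.67 ± 0.20 for Cdh9, -0.91 ± 0.21 for Cdh19 and -0.39 ± 0.14 for Pcdh11x (edgeR's adjusted p = 1.69e-05, 0.0148, 0.00260 and 0.0409). In CaMKIIβ RIP the same 4 genes stood at -0.87 ± 0.36, -0.20 ± 0.35, -0.35 ± 0.52 and -0.67 ± 0.33 and did not pass, and 2 members were lower in IgG RIP without Input replicate 2, where Cdh9 no longer passed.

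Cdh5 (VE-cadherin), the adhesion protein of endothelial junctions, had 23.8, 14.2 and 24.5 CPM in CaMKIIβ RIP, 24.0, 21.9 and 29.97 in IgG RIP, and 12.5 and 12.3 in Input. It rose by 1.04 ± 0.15 in IgG RIP (edgeR's adjusted p = 2.20e-05) and was 0.70 ± 0.28 higher in CaMKIIβ RIP (0.199). Without CaMKIIβ RIP replicate 2, which had the lowest RIP value, the CaMKIIβ RIP difference was 0.97 and passed (edgeR's adjusted p = 0.008916). Pcdh12, known from the same cells, had 0 counts in that library alone, as did Pcdha11 of the Pcdha cluster. Of 6 endothelial markers, 2 rose in CaMKIIβ RIP and 4 in IgG RIP, with summed levels of 167 to 200, 190 to 205, and 123 to 124 CPM in CaMKIIβ RIP, IgG RIP and Input. Of 4 astrocyte markers, 3 and 4 rose, with sums of 7459 to 8884, 8305 to 9590, and 3654 to 3729 CPM. Of 4 meningeal fibroblast markers 2 rose with each antibody, with sums of 201 to 212, 184 to 191, and 84.1 to 96.6 CPM. Of 4 oligodendrocyte markers 2 rose with each antibody, while 1 fell in CaMKIIβ RIP and 2 in IgG RIP, with sums of 9223 to 9403, 8716 to 9300, and 5043 to 5057 CPM. Of 5 smooth muscle and pericyte markers 3 rose and 1 fell with each antibody, with sums of 156 to 203, 185 to 211, and 141 to 142 CPM. Of 5 Purkinje cell markers 3 fell with each antibody and 1 rose in IgG RIP, with sums of 1077 to 1156, 1040 to 1168, and 1543 to 1605 CPM. Of 5 choroid plexus and ependyma markers 0 passed in CaMKIIβ RIP, while 2 rose and 1 fell in IgG RIP. Of 3 oligodendrocyte progenitor markers 1 rose in CaMKIIβ RIP and 2 in IgG RIP. Of 3 microglia markers tested 1 rose with each antibody and 1 fell in IgG RIP. Of 4 blood markers 0 passed in CaMKIIβ RIP and 3 fell in IgG RIP. No marker of these lists had a group mean of 0, and their part in the members' differences was not tested.

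**Figure D3:**
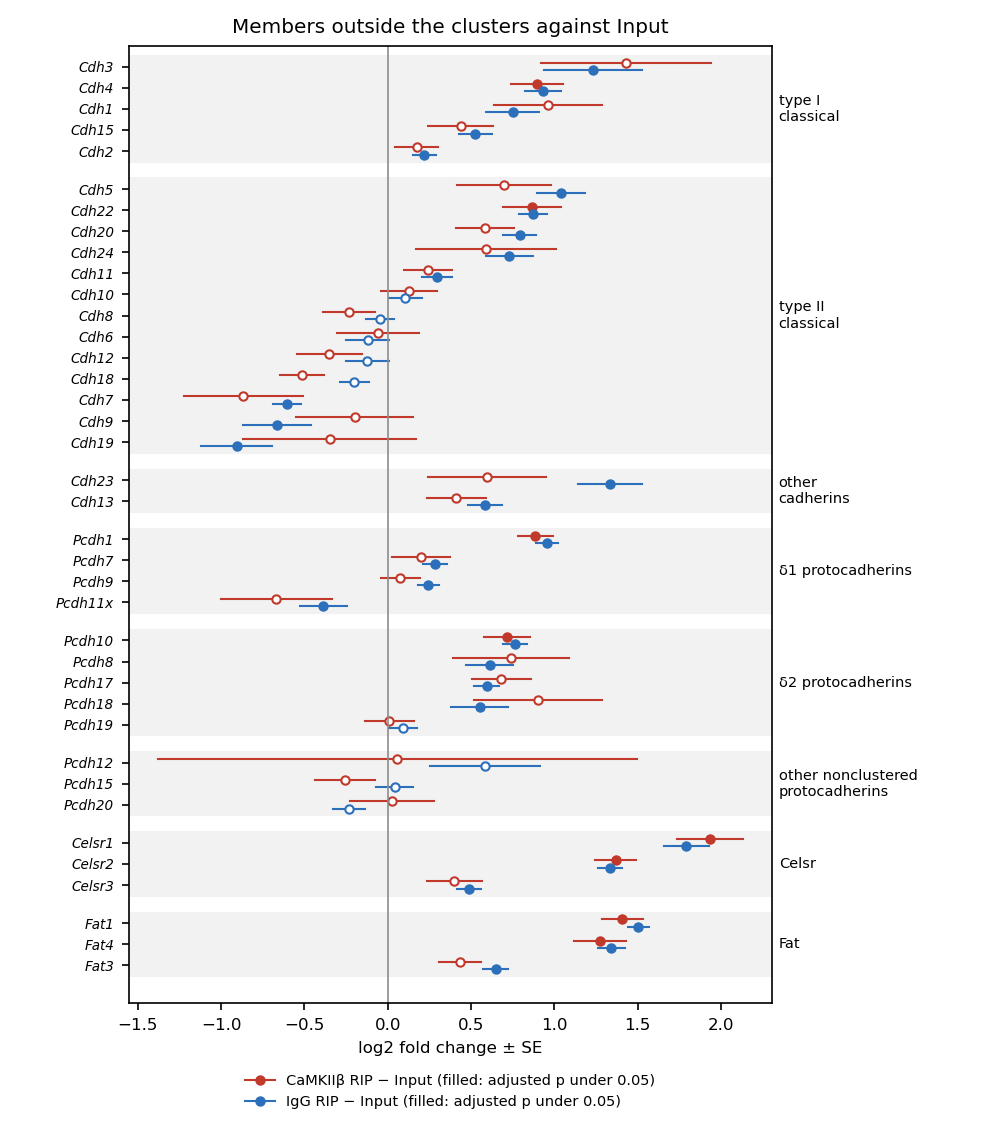
Log2 fold change ± SE against Input of the 38 tested members outside the clusters, by subfamily, for CaMKIIβ RIP and IgG RIP, which share the Input libraries (filled: edgeR's adjusted p under 0.05). Celsr, Fat and type I genes lie right of 0 with both antibodies (with library size alone Cdh2 lies at -0.00651 in IgG RIP), and type II genes spread to both sides.

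Members are long genes, with a median of 7740 exon bases outside the clusters (3012 to 23773), and longer protein-coding genes passed more often. Among protein-coding genes over 8 kb, 15.2% were higher in CaMKIIβ RIP and 42.4% in IgG RIP, where 6 and 14 of 20 members were higher. Between 4 and 8 kb the shares were 9.35% and 33.2%, where 1 and 8 of 14 members were higher. From 2 to 4 kb they were 3.68% and 21.7%, where 1 and 3 of 4 members were higher. The CaMKIIβ count of the middle class was therefore near its background. Lower calls were also more frequent among longer genes. Over 8 kb 8.24% of protein-coding genes were lower in CaMKIIβ RIP and 25.5% in IgG RIP, where 0 and 2 of 20 members were lower. With the trend on exon length removed, 7 members were higher and 1 lower in CaMKIIβ RIP, and 21 were higher and 6 lower in IgG RIP. Over all genes 712 of 22095 were then higher and 1222 lower in CaMKIIβ RIP, and 4025 of 22342 higher and 4560 lower in IgG RIP.

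Of genes that work with the superfamily, 3 lists are given. Their counts stand beside 5.06% of all genes and 7.63% of protein-coding genes higher in CaMKIIβ RIP. In IgG RIP these shares were 20.1% and 28.7%. Of 8 catenins tested, the intracellular partners of classical cadherins, 2 rose in CaMKIIβ RIP and 8 in IgG RIP. Ctnnd2 (δ-catenin) was higher by 0.80 ± 0.12 and 0.94 ± 0.06, and Jup (plakoglobin) by 0.84 ± 0.14 and 0.76 ± 0.07, in CaMKIIβ RIP and IgG RIP over Input. Of 12 planar polarity genes, 2 and 8 rose. They included the partners of Fat4: Dchs1, its ligand, was higher by 1.82 ± 0.19 and 1.79 ± 0.08, and Fjx1, the relative of a kinase that tunes Fat and Dachsous in flies, by 1.71 ± 0.22 and 1.39 ± 0.11. Of 3 calsyntenins, cadherin-repeat proteins of synapses, 2 and 3 rose, among them Clstn1 by 0.88 ± 0.11 and 0.81 ± 0.07. Adam10, a protease that cuts cadherins and is named here after its values were seen, stood at -0.29 ± 0.16 in CaMKIIβ RIP without passing (edgeR's adjusted p = 0.357) and at -0.27 ± 0.07 in IgG RIP (0.00761). Median log2 fold changes in CaMKIIβ RIP and IgG RIP were 0.66 and 0.71 for catenins, 0.45 and 0.45 for planar polarity genes, and 0.86 and 0.72 for calsyntenins. The medians were -0.12 and -0.02 for all genes, and 0.01 and 0.08 for protein-coding genes. No gene of the 3 lists passed between the antibodies.

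The direct comparison of CaMKIIβ RIP with IgG RIP asked whether the CaMKIIβ antibody recovered more or less of a member than the control antibody did. None of the 38 members passed, with edgeR's adjusted p between 0.982 and 0.999, and neither did any of the 20566 genes tested (0% higher and 0% lower). DESeq2 and limma-voom also called 0 genes. At an unadjusted p under 0.05 edgeR counted 721 genes, 3.51% of all, and among the members 1, Cdh23. The median log2 fold change of the members was -0.01, beside -0.02 for all genes. All CaMKIIβ RIP libraries stood above all IgG RIP libraries in 1 member, Celsr1, and below in 3, against 4.86% and 7.12% of all genes. The 95% interval of the difference lay within 2-fold either way for 32 of the 38 members and for 52% of all genes.

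The members with the smallest p were Cdh23, Cdh18 and Cdh9. Cdh23 was lower in CaMKIIβ RIP by 0.67 ± 0.26 in log2 terms, with a fold change of 0.629 (unadjusted p = 0.0271, edgeR's adjusted p = 0.982). Cdh18, a neuronal type II cadherin, had 55.5, 48.3 and 52.2 CPM in CaMKIIβ RIP, 63.2, 66.4 and 56.9 in IgG RIP, and 70.5 and 73.3 in Input. It was lowest in CaMKIIβ RIP and highest in Input, with no overlap between groups, at a CaMKIIβ RIP over IgG RIP log2 fold change of -0.25 ± 0.12 (edgeR's adjusted p = 0.982). Against Input, Cdh18 was at -0.51 ± 0.13 in CaMKIIβ RIP (0.0588), which passed under 7 alternatives (-0.68 and 0.0226 with library size alone), and at -0.20 ± 0.09 in IgG RIP (0.0760). In IgG RIP against Input, Cdh18 passed with library size alone (-0.43, edgeR's adjusted p = 0.00100) and with the exon length trend removed (-0.28, 0.0154). It also passed without IgG RIP replicate 2 (-0.24, 0.0331). Cdh9 stood at 0.52 ± 0.33 with overlapping libraries. For the members that had risen most against Input the intervals were narrow. They ran from -0.24 to 0.18 for Fat1, from -0.25 to 0.25 for Fat4, from -0.12 to 0.32 for Celsr2 and from -0.11 to 0.52 for Celsr1.

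**Figure D4:**
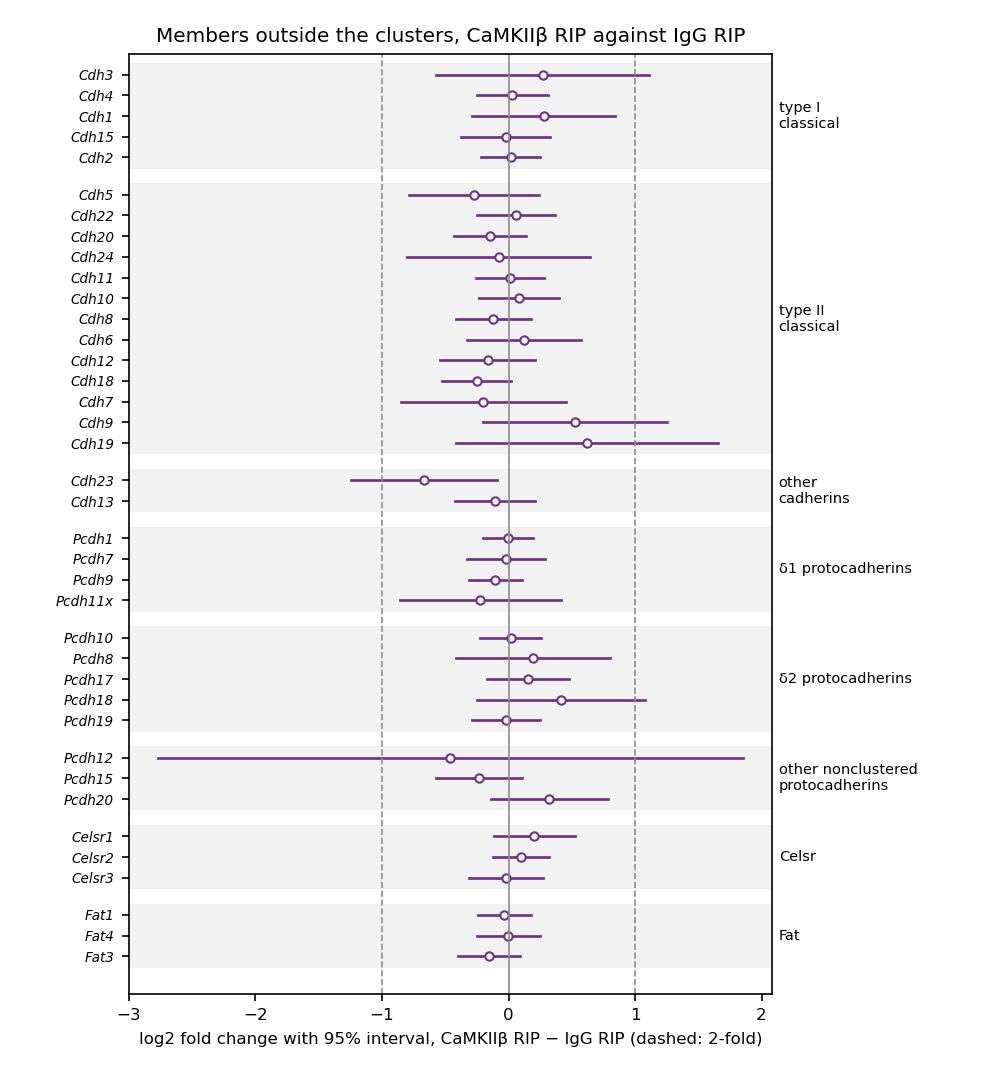
Log2 fold change of CaMKIIβ RIP over IgG RIP with its 95% interval for the 38 tested members outside the clusters, with dashed lines at 2-fold. The intervals of 32 members lie between the lines, and that of Cdh23 alone does not include 0.

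The clustered protocadherins lie side by side on chromosome 18 and give each neuron a combination of surface proteins. In the Pcdha and Pcdhg clusters each gene adds its own first exon to constant exons shared by the cluster, while Pcdhb genes have single exons of their own. A median of 53.6% of a Pcdha gene's exon bases and 45.2% of a Pcdhg gene's were shared with other genes on either strand, against 0% in Pcdhb. Pcdhga10 had no base unshared on both strands and 1 count in all libraries together, and Pcdha4 had 404 unshared bases and 56 counts. Single clustered genes are thus uncertain, and near-identical Pcdhb copies could also split reads, so the counts of each cluster were summed as well. The handling of reads over several genes was not given. Reads over the shared exons may therefore be missing from the Pcdha and Pcdhg sums.

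The summed Pcdhg genes had 582, 502 and 505 CPM in CaMKIIβ RIP, 545, 581 and 573 in IgG RIP, and 346 and 315 in Input. The summed Pcdhb genes had 245, 202 and 249.5 CPM in CaMKIIβ RIP, 248, 239 and 231 in IgG RIP, and 219 and 221 in Input. The summed Pcdha genes had 112, 143 and 83.1 CPM in CaMKIIβ RIP, 93.3, 99.98 and 94.4 in IgG RIP, and 89.8 and 90.7 in Input. Only the Pcdhg sum lay above Input in every library of both antibodies by a wide margin. It rose by 0.64 ± 0.12 in CaMKIIβ RIP and 0.79 ± 0.06 in IgG RIP (edgeR's adjusted p = 0.0207 and 5.96e-08). The call in CaMKIIβ RIP ended without CaMKIIβ RIP replicate 1 (0.57, adjusted p = 0.0888), Input replicate 1 (0.69, 0.0653) or Input replicate 2 (0.55, 0.247). The Pcdhb sum stood at 0.04 ± 0.12 and 0.14 ± 0.06 and the Pcdha sum at 0.28 ± 0.22 and 0.10 ± 0.07, and none of these passed. Between the antibodies the sums stood at -0.09 ± 0.09 (Pcdhg), -0.04 ± 0.10 (Pcdhb) and 0.24 ± 0.17 (Pcdha), with edgeR's adjusted p of at least 0.982.

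The ratio of Pcdhg to Pcdhb counts within a library, which does not depend on library scaling, was 2.29 ± 0.240 in CaMKIIβ RIP, 2.37 ± 0.151 in IgG RIP (SD, n = 3 each) and 1.504 ± 0.110 in Input (SD, n = 2). No RIP library overlapped Input (exact two-sided permutation p = 0.2 for each antibody, the smallest possible). Part of the ratio lay in Pcdhgc3, a C-type gene used more evenly across neurons than the others. It held 23.8% ± 2.23 of Pcdhg counts in CaMKIIβ RIP, 22.7% ± 0.703 in IgG RIP and 16.1% ± 0.471 in Input. Without Pcdhgc3 the ratio was 1.75 ± 0.229, 1.83 ± 0.103 and 1.26 ± 0.0995 in CaMKIIβ RIP, IgG RIP and Input, still without overlap. Pcdhac2, the most counted Pcdha gene, held 51.05%, 47.98% and 46.6% of Pcdha counts in the same groups, with overlap between all of them.

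As single genes, 1 of 55 clustered members tested rose and 0 fell in CaMKIIβ RIP, below the 5.06% of all genes. It was Pcdhgc3, with 141, 108 and 130 CPM in CaMKIIβ RIP, 120, 131 and 134 in IgG RIP, and 54.7 and 51.8 in Input. It lay over 1.5-fold above Input in every RIP library, at 1.20 ± 0.15 in CaMKIIβ RIP and 1.28 ± 0.08 in IgG RIP (edgeR's adjusted p = 0.00851 and 2.90e-09). The call with the CaMKIIβ antibody was lost without CaMKIIβ RIP replicate 1 (1.15, 0.0774). Without replicate 2 the count of clustered genes was 9, where 2471 of 21901 genes were higher. In IgG RIP 23 of 55 rose and 1 fell, where 20.1% of all genes were higher and 18.7% lower. With library size alone 16 rose and 4 fell, beside 2714 of 22342 genes higher and 6345 lower. In a fit of all 8 libraries 7 rose and 0 fell, beside 2023 of 23108 genes higher and 1653 lower. The 23 that rose with TMM scaling were 18 of 20 Pcdhg, 4 of 21 Pcdhb and 1 of 14 Pcdha genes. Pcdhga9 rose by 1.10 ± 0.12 in IgG RIP, with 28.6, 24.4 and 26.6 CPM in CaMKIIβ RIP, 31.4, 32.2 and 31.6 in IgG RIP, and 15.97 and 14.01 in Input.

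Among the Pcdhb genes Pcdhb10 had 12.5, 11.0 and 10.5 CPM in CaMKIIβ RIP, 12.5, 11.9 and 13.7 in IgG RIP, and 7.05 and 5.87 in Input. It rose by 0.99 ± 0.17 in IgG RIP and was separate from Input with both antibodies. Pcdhb13 had 10.1, 3.56 and 12.03 CPM in CaMKIIβ RIP, 11.1, 7.55 and 9.09 in IgG RIP, and 4.23 and 5.41 in Input. It rose by 0.95 ± 0.21 in IgG RIP, with CaMKIIβ RIP replicate 2 below both Inputs. Pcdhb16, named after its value was seen as the one that fell, stood at -0.43 ± 0.15. Without Input replicate 1 or 2 no clustered gene fell in IgG RIP, and without IgG RIP replicate 2, 3 did. Pcdha3 rose by 0.59 ± 0.21 in IgG RIP (edgeR's adjusted p = 0.0361), with 6.21, 11.0 and 1.42 CPM in CaMKIIβ RIP, 5.84, 7.28 and 7.93 in IgG RIP, and 4.79 and 4.61 in Input. Its CaMKIIβ libraries lay on both sides of Input, and the IgG call ended in 9 of 14 alternatives. With the CaMKIIβ antibody set against IgG, none of 54 clustered genes passed.

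**Figure D5:**
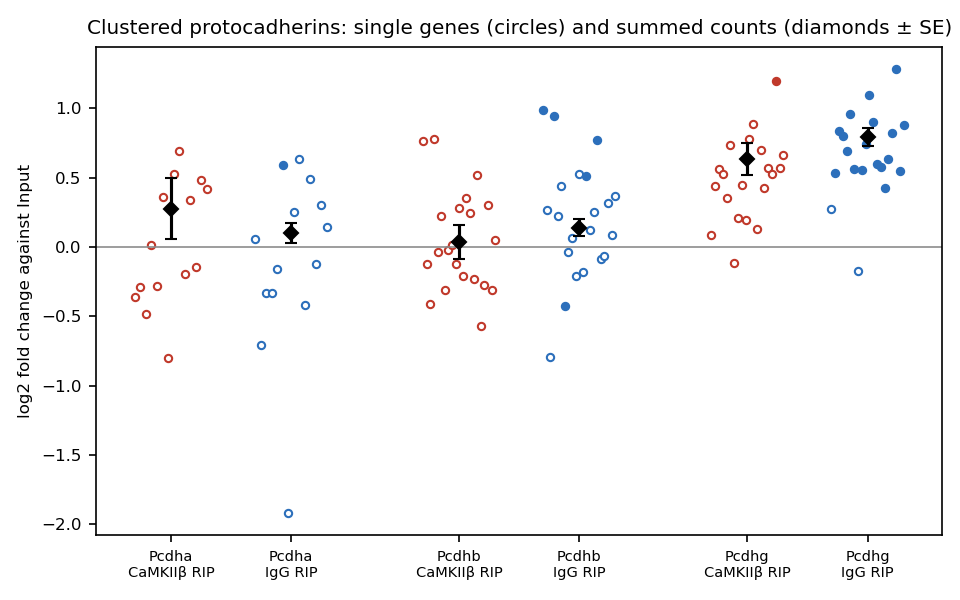
Log2 fold change against Input of single clustered protocadherins (circles, filled where edgeR's adjusted p was under 0.05) and of each cluster's summed counts (diamonds ± SE), for CaMKIIβ RIP and IgG RIP. Pcdhg genes lie mostly above 0 with both antibodies, while Pcdha and Pcdhb genes scatter around it.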

How the data were processed

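The authors deposited raw counts of reads per gene for 8 libraries, a unit taken from whole numbers and unequal library totals. The submitters' processing notes name Trim Galore 0.6.4, cutadapt 2.10, STAR 2.7.3a, featureCounts 2.0.1 and GRCm38.p6. Strandedness, the release of the gene annotation and the handling of reads over several genes were not given in the sources used here. All 8 columns were matched to samples by name, and 0 were left unmapped.

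RefSeq symbols were joined to the deposited genes by at least 0.5 of their joint span, with no second partner within 0.8 of that share. Clustered protocadherins were joined by 5′ ends at most 500 bases apart on the same strand. All 98 members were joined. The members and lists were chosen with earlier results of these data known. A further list of partner genes is not reported here.

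For each comparison only the libraries of its own groups entered edgeR (4.0.16, under R 4.3.3), with the quasi-likelihood F test with robust dispersion, TMM scaling and filterByExpr (minimum count 10, minimum total 15). Benjamini-Hochberg adjustment ran over all genes, with a threshold of 0.05. Scaled CPM use one TMM scaling over the 8 libraries, and errors of log2 fold changes are SE. Simulated counts in which 200 genes were changed served to test the fit, which recovered 38% of 2-fold changes in CaMKIIβ RIP against Input (22095 genes), 74% in IgG RIP against Input (22342) and 54% in CaMKIIβ RIP against IgG RIP (20566). The simulated spread depended on a gene's level alone. Differences in spread between genes of like level, and an outlying library such as CaMKIIβ RIP replicate 2, were not reproduced. Shares and ratios were compared by exact permutation tests in scipy 1.17.1. No library was left out, and replicates 1 to 3 of a group were unlike enough to count as separate libraries (chi-square per gene 4.59 to 53.7).

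Members named were up to 8 past the threshold with the largest change against Input (average log2 CPM of at least 1), all Celsr and Fat genes, and the 5 highest in Input per kb. Added to them were the 3 with the smallest p between antibodies, up to 2 genes per cluster, and Cdh5, Cdh2, Cdh13 and Pcdh9. Replicate numbers were checked for pairing. Deviations of libraries with the same number correlated between -0.07 and 0.08, so the numbers were not taken to pair the libraries. The alternatives were other scalings, filters and tools (DESeq2 1.42.0, limma 3.58.1), a fit of all 8 libraries, a replicate block, fold changes freed of their exon length trend (loess, span 0.5), a stricter join and each library left out.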

Additional observations from a re-analysis of the deposited data

How the results depend on the processing

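In CaMKIIβ RIP against Input, the count of 8 higher members outside the clusters was 13 in a fit of all 8 libraries, 14 with the replicate block, and 0 to 14 as each CaMKIIβ RIP library was left out. Counts over all genes moved too. In the main fit 1117 of 22095 genes were higher, against 2070 of 23108 in the fit of all 8 libraries and 1986 of 22095 with the replicate block. Without CaMKIIβ RIP replicate 1 they were 0 of 21439, and without replicate 2 they were 2471 of 21901. The count of 0 lower members was 1 with library size alone, DESeq2, limma-voom, the fit of all 8 libraries and the length trend removed, 3 with the replicate block, and 0 to 1 with a CaMKIIβ RIP library left out. Over all genes 751 were lower in the main fit, and 1222 to 2219 in these alternatives other than a library left out. The 1 higher clustered gene became 2 with RLE scaling, the stricter filter and limma-voom, 4 without a filter, 6 with DESeq2, 8 in the fit of all 8 libraries, 5 with the replicate block, and 0 to 9 with a CaMKIIβ RIP library left out. Over all genes 1197 (stricter filter) to 2102 (DESeq2) were higher in these alternatives other than a library left out. The Pcdhg sum ranged from 0.55 to 0.73 with a library left out. In IgG RIP against Input, the fit of all 8 libraries gave 14 higher and 0 lower members outside the clusters and 7 higher and 0 lower clustered genes. Of 23108 genes 2023 were higher and 1653 lower in that fit. Library size alone gave 9 lower members outside and 4 lower clustered genes, and limma-voom 2 lower clustered genes. Of 22342 genes 6345 and 4508 were lower in these 2 settings, against 4170 in the main fit. With a library left out there were 2 to 6 lower members outside and 0 to 3 lower clustered genes. The Pcdhb sum ranged from 0.11 to 0.16 and passed without IgG RIP replicate 3 (0.16, edgeR's adjusted p = 0.0336). Cdh2 in IgG RIP was -0.00651 with library size alone. The replicate block changed no other count by over 1.5 times, and of the named genes it ended the call of Pcdha3 in IgG RIP (0.49, edgeR's adjusted p = 0.0853). In CaMKIIβ RIP against Input it added calls of Celsr3 (0.53), Fat3 (0.43), Cdh18 (-0.51) and Pcdhga9 (0.78), with edgeR's adjusted p of 0.00545 to 0.0309. In CaMKIIβ RIP against IgG RIP each alternative gave 0 calls among the members. The stricter join found the same number of members outside the clusters, 41. The cause of these changes was not tested.

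The spread of the CaMKIIβ RIP libraries limits both of their comparisons. Their biological coefficient of variation was 0.477 against Input and 0.388 against IgG RIP. Without CaMKIIβ RIP replicate 2 these values were 0.234 and 0.243. In IgG RIP against Input the coefficient was 0.115. Levels are relative to library size, so the total RNA recovered by an antibody is not measured.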
